A study of Mus musculus with 15 samples.

Results

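Matrix metalloproteinases (MMPs) and their tissue inhibitors (TIMPs) were described in the livers of young and old mice with and without S6K1. The genes were 10 members chosen by name, the 7 proteases *Mmp2*, *Mmp9*, *Mmp13*, *Mmp14*, *Mmp15*, *Mmp19* and *Mmp27* and the 3 inhibitors *Timp1*, *Timp2* and *Timp3*, out of 37991 genes in the count table. The annotation names 27 such genes, 23 MMPs and 4 TIMPs. The 10 were listed with earlier results of these libraries known and no value was recorded as the threshold, so the counts of members that changed are a description of the listed genes and no independent evidence. *Mmp13* and *Timp1* were also among the genes the study itself picked from these libraries.

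RNA was sequenced from whole liver of female C57BL/6 mice on a chow diet, 1 mouse per library and 5 mice per group. Young WT mice were 90 days old and old WT mice 600 days old, both with intact *Rps6kb1*, the gene of ribosomal S6 kinase 1 (S6K1). Old KO mice were also killed at 600 days and had no functional S6K1 in any tissue from conception, and WT and KO mice came from heterozygous breeding. No young KO livers were sequenced, so genotype was compared at 600 days only. Total counts lay between 21801754 and 38065359 per library. *Rps6kb1* stood at 33.3 to 41.4 CPM (counts scaled to the library size) in the young, 34.6 to 45.4 in the old WT and 15.2 to 20.8 in the old KO livers, lower in every library labelled KO.

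MMPs are zinc proteases that cut collagens, laminins and other proteins of the extracellular matrix and also release growth factors and cytokines from cell surfaces. They are made as inactive proforms, most of them secreted and some anchored in the cell membrane, and TIMPs block the active enzymes by binding in the catalytic cleft. In liver, stellate cells, macrophages, endothelial cells and neutrophils are known sources, and the balance of protease and inhibitor is studied in fibrosis. Several MMPs also belong to the secreted factors of senescent cells.

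In 4 of the 10 genes (*Mmp27*, *Mmp13*, *Mmp15* and *Timp1*) every old WT library lay above every young WT library. *Mmp13* had too few counts to be tested, and of the 9 tested members 3 did so, against 5.78% of all genes tested. Among these 3, *Timp1* had enough counts for the test through old livers alone, so the share is a description only. The sequence just upstream of each of the 4 genes is shown here. Each is the 100 bases before the RefSeq transcription start on GRCm38.p6, read 5′ to 3′ on the gene's plus strand: chr9:7571296-7571395 for *Mmp27*, chr9:7272414-7272513 for *Mmp13*, chr8:95352196-95352295 for *Mmp15* and chrX:20870066-20870165 for *Timp1*. Capitals mark TGANTCA, the AP-1 element, through which Fos and Jun proteins are known to act on several MMP genes.
Mmp27: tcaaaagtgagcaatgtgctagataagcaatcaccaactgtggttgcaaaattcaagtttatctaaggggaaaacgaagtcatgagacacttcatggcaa
Mmp13: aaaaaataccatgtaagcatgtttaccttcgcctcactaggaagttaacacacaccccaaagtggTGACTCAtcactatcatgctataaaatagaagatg
Mmp15: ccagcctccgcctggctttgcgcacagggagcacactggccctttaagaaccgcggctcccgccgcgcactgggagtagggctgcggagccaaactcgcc
Timp1: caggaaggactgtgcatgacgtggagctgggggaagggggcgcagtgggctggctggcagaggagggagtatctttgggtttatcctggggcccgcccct

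RefSeq windows of 300 bases, from 250 before the start to 50 after it, were at hand for 7 members, and *Mmp2*, *Mmp9* and *Mmp19* had none. TGANTCA, searched on both strands, on which it reads alike, was found in 1 of these 7 members, *Mmp13*, where it began 35 bases before the start. Of all 32817 mouse windows of that length, 7.81% held it. *Mmp13* and *Mmp27* lie at places 1 and 8 of a row of 10 MMP genes on chromosome 9 (7272514 to 7699585 on NCBIM37, the build of the counts, 427 kb), and the letters were in 8 of these 10 genes. *Mmp27* and its neighbour *Mmp8* were the exceptions, and none of the 12 other MMP and TIMP genes with a window held the letters (0 of 12). In these livers 4 of the 10 clustered genes had 0 counts in all libraries and 3 (*Mmp12*, *Mmp27* and *Mmp7*) had enough counts to be tested.

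Levels of different genes are given per length of exon (RPKM, reads per kilobase of exon, scaled to library size as in CPM). *Mmp14*, which anchors its protease in the membrane and activates pro-MMP2, and *Mmp19*, a secreted protease with basement membrane substrates, were far above the other members. In young WT livers *Mmp14* stood at 23.0 ± 1.17 RPKM and *Mmp19* at 16.7 ± 1.73 (SD, n = 5), with ranges that did not overlap. Together they made up 52.4% and 38.1% of the summed RPKM of the 7 MMPs. *Timp2* followed at 3.28 ± 0.43 and *Mmp15* at 3.04 ± 0.361 RPKM, which overlapped, then *Timp3* at 1.90 ± 0.516 and *Mmp2* at 0.619 ± 0.148. *Mmp27*, *Mmp9*, *Timp1* and *Mmp13* came last, from 0.315 down to 0.0288 RPKM, each overlapping its neighbour. In old WT livers the ranges of *Mmp14* (22.9 ± 0.70 RPKM) and *Mmp19* (21.0 ± 2.09) overlapped, and so they did in old KO livers (25.2 ± 1.92 and 23.7 ± 3.29). *Mmp27* ranked above *Timp1* in old WT livers and below it in old KO livers, in both cases with overlapping ranges.

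**Figure D1:**
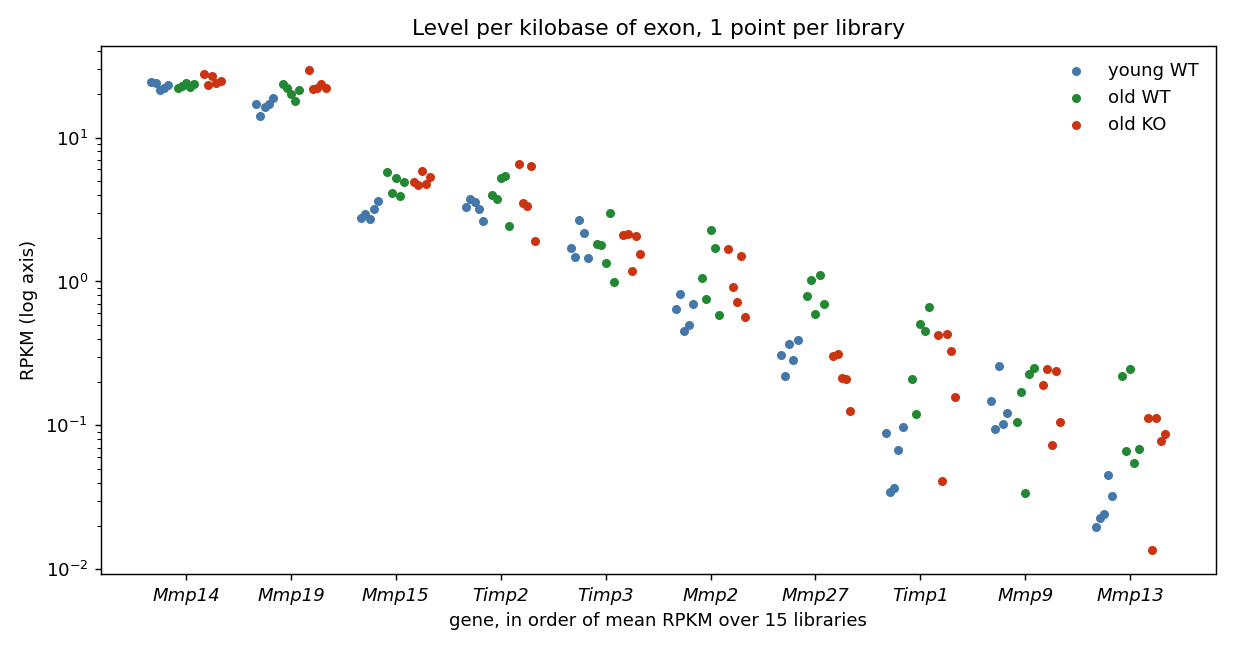
RPKM of the 10 members on a log axis, 1 point per library, in order of the mean over 15 libraries, with colours for young WT, old WT and old KO. *Mmp14* and *Mmp19* stand above the rest in every library, and the *Mmp27* points of old WT lie above those of the other groups.

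The 9 members with enough counts were tested with edgeR's quasi-likelihood test over all 14258 genes that passed the same filter, with p-values adjusted by Benjamini-Hochberg, and a gene was called at an adjusted p under 0.05. *Mmp13*, with 93 counts in all, did not pass the filter. *Timp1*, with 90, passed it through old livers alone. In old WT against young WT livers 4 of the 9 were called higher and 0 lower, where 18.8% of all genes were called (9.92% higher and 8.91% lower). The median log2 fold change of the 9 was 0.34 and that of all genes 0.01. In old KO against old WT livers 1 of the 9 was called, lower, where 0.533% of all genes were called (0.112% higher and 0.421% lower), and the median was 0.06. Both comparisons use the same old WT livers, so they are not independent of each other.

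*Mmp27* encodes a little-studied protease of the chromosome 9 row and spans 7571396 to 7581885 there on the plus strand (NCBIM37). Its levels in young WT livers 1, 2, 3, 4 and 6 were 0.684, 0.489, 0.815, 0.633 and 0.862 CPM, and in old WT livers 1, 4, 5, 7 and 10 they were 1.75, 2.28, 1.31, 2.46 and 1.54 CPM. In old KO livers 1, 2, 4, 5 and 6 they were 0.674, 0.690, 0.471, 0.461 and 0.278 CPM. Every old WT liver was above every liver of the other groups, and old KO livers overlapped young WT livers. *Mmp27* rose with age by 1.42 on the log2 scale (SE 0.244, adjusted p = 0.00152), 2.68-fold. It fell in old KO against old WT livers by 1.83 on the log2 scale (SE 0.257, adjusted p = 0.00472), 3.55-fold lower, and stood at rank 7 of all genes tested by p. Old KO differed from young WT by −0.40 (95% interval −0.98 to 0.17, adjusted p = 0.297). These values rest on 108, 273 and 65 counts per group of 5, the lowest library holding 6.

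Markers of monocytes and macrophages moved in the same direction as *Mmp27*. Of 26 such markers, all tested, 10 were called higher and 1 lower with age (9.92% and 8.91% of all genes). In old KO against old WT livers 0 were called higher and 9 lower (0.112% and 0.421% of all genes). Their summed level ranged from 349 to 738 CPM in the young, from 572 to 1007 in the old WT and from 284 to 518 in the old KO livers, and no marker was at 0 in all libraries of a group. The mean sum was 1.91 times as high in old WT as in old KO livers. Per 1000 CPM of these markers *Mmp27* stood at 0.985 to 1.76 CPM in the young, 2.02 to 3.07 in the old WT and 0.969 to 1.65 in the old KO livers, so that old WT lay apart from both other groups on this scale too. In whole liver, fewer cells of a type and less RNA per cell cannot be told apart, and the part of macrophages in the *Mmp27* result was not tested.

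**Figure D2:**
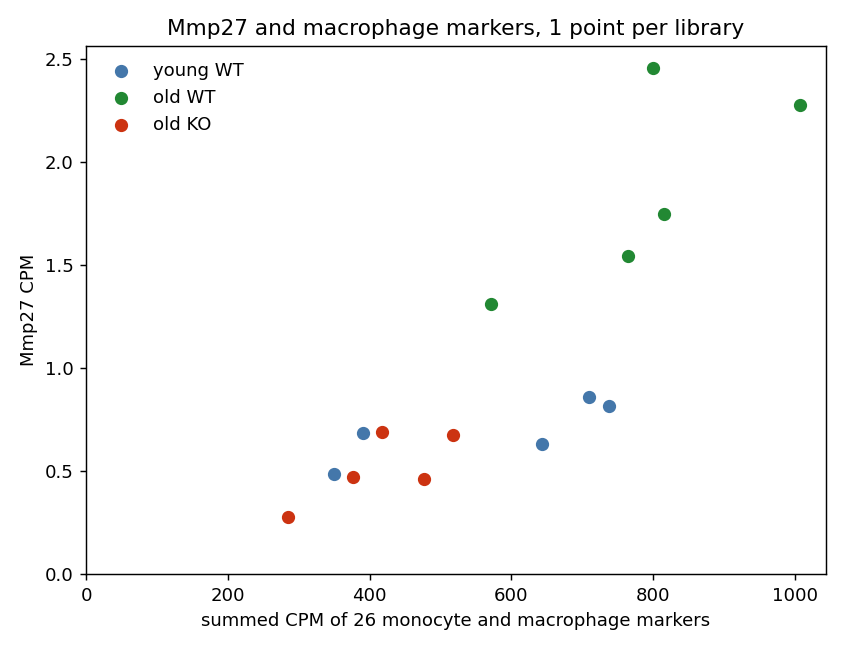
*Mmp27* CPM against the summed CPM of 26 monocyte and macrophage markers, 1 point per library. The 5 old WT livers lie above all others, with *Mmp27* at 1.31 CPM or more and marker sums of 572 CPM or more, which 3 young WT livers also reach, and the 5 old KO livers have marker sums of 518 CPM or less.

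*Mmp15* encodes a membrane-anchored protease related to the product of *Mmp14* and spans 97876168 to 97898193 of chromosome 8 on the plus strand (NCBIM37). It stood at 12.0, 12.9, 11.9, 13.8 and 15.7 CPM in young WT livers and at 25.0, 17.8, 22.7, 17.0 and 21.5 CPM in old WT livers. In old KO livers it stood at 21.2, 20.3, 25.5, 20.7 and 23.0 CPM. The old groups lay above all young livers and overlapped each other. It rose by 0.65 (SE 0.114, adjusted p = 0.00162) on the log2 scale in old WT and by 0.74 (SE 0.114, adjusted p = 0.000497) in old KO livers against young WT. The difference between the old groups was 0.09 (95% interval −0.15 to 0.33, adjusted p = 0.825).

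*Mmp14* was the steadiest member across libraries. Its level was 59.6 ± 3.03 CPM in young WT, 59.5 ± 1.82 in old WT and 65.5 ± 4.98 in old KO livers (SD, n = 5). The fold between old and young WT was 0.998 (log2 95% interval −0.14 to 0.13, adjusted p = 0.980). Old KO livers stood at 59.7 to 71.7 CPM and old WT livers at 57.7 to 61.7, a log2 difference of 0.14 with an unadjusted p of 0.0458 in the edgeR fit and an adjusted p of 0.421.

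*Mmp19* stood at 58.0, 48.1, 55.5, 58.1 and 64.5 CPM in young WT, at 80.1, 75.6, 68.0, 61.7 and 73.4 in old WT and at 101, 74.2, 74.7, 79.7 and 75.0 in old KO livers. Old KO lay above all young livers, while 1 old WT liver, at 61.7 CPM, fell within the young range. *Mmp19* rose by 0.34 (SE 0.101, adjusted p = 0.0302) in old WT and by 0.51 (SE 0.101, adjusted p = 0.00257) in old KO against young WT livers. The old groups differed by 0.17 (95% interval −0.04 to 0.39, adjusted p = 0.538). The old WT call was lost when any 1 of 7 of the 15 libraries was left out (young WT 1, 2, 3 and 4, old WT 1, 4 and 10), with adjusted p up to 0.0806. Over all 15 such fits its value lay between 0.28 and 0.39. Exons of *Mmp19* overlap those of *1110012D08Rik* on the opposite strand, which held 3.29 to 4.90 CPM, and the strand setting of the counting was not stated.

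*Mmp2* and *Mmp9* encode the gelatinases, which cut denatured collagen and type IV collagen. *Mmp2* stood at 1.95, 2.47, 1.37, 1.51 and 2.11 CPM in young WT, at 3.22, 2.31, 6.89, 5.20 and 1.76 in old WT and at 5.09, 2.80, 2.18, 4.57 and 1.72 in old KO livers. The old groups spread widely, with 3 livers of each above the young range and the others within it. Old WT against young WT gave 1.05 (SE 0.363, adjusted p = 0.0540), which missed the threshold. It passed with DESeq2 (1.04, adjusted p = 0.0216) and when old WT 4 or 10, or old KO 1 or 6, was left out. It missed the threshold with voom (0.92, adjusted p = 0.0963) and with a block for replicate number (0.56, adjusted p = 0.339). Over all fits without 1 library it lay between 0.73 and 1.23 (adjusted p 0.0248 to 0.171). Old KO against old WT gave −0.24 (95% interval −0.99 to 0.51, adjusted p = 0.856).

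*Mmp9* was low, at 0.336 to 0.913 CPM in the young, 0.119 to 0.882 in the old WT and 0.257 to 0.872 in the old KO livers, and the groups overlapped throughout. Its age difference was 0.09 (95% interval −0.86 to 1.04, adjusted p = 0.909) and its genotype difference 0.15 (95% interval −0.81 to 1.11, adjusted p = 0.944). Intervals of this width leave room for a change of either sign. Of the 13 neutrophil markers, cells that store MMP9 protein in granules, 5 had enough counts. None was called with age or between the old groups (0 of 5 each, against 18.8% and 0.533% of all genes). An unadjusted p under 0.05 was reached by 0 and 2 of them, against 33.0% and 11.6% of all genes.

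*Mmp13* encodes the main collagenase of rodents. It had 2, 2, 2, 4 and 2 counts in young WT, 19, 5, 22, 4 and 5 in old WT and 8, 1, 7, 5 and 5 in old KO livers. Scaled to depth, the old WT livers reached from 0.147 to 0.656 CPM and the young ones from 0.0527 to 0.121, and the 2 livers near 0.6 CPM (old WT 1 and 5) stood far above the other three. An exact 2-sided permutation test on log2(CPM + 0.1) gave an unadjusted p of 0.00794 for age, the smallest that 5 against 5 allows, at a difference of 1.19, which the added 0.1 makes smaller than the fold between the mean CPM of 0.352 and 0.0771. An edgeR fit without the filter gave 2.17 (adjusted p = 0.0191) for age, −0.74 (adjusted p = 0.705) for old KO against old WT and 1.43 (adjusted p = 0.145) for old KO against young WT. For old KO against old WT the same exact test gave p = 0.349 at −0.44, and for old KO against young WT it gave p = 0.0476 at 0.75. The last of these p-values reached 0.0556 to 0.103 when any 1 of 9 libraries was left out (all 5 young WT, and old KO 1, 4, 5 and 6). These values rest on 12, 55 and 26 counts per group, and the coefficient of variation in old WT livers was 71.3%.

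*Timp1*, which encodes an inhibitor of most secreted MMPs, had 3, 1, 1, 2 and 2 counts in young WT, 6, 3, 15, 11 and 16 in old WT and 10, 1, 9, 7 and 3 in old KO livers. It lay between 0.0305 and 0.0862 CPM in young WT, between 0.107 and 0.588 in old WT and between 0.0363 and 0.385 in old KO livers. All old WT livers were above the young ones, and 4 of the 5 old KO livers were. The fitted difference was 2.51 (95% interval 1.25 to 3.77, adjusted p = 0.00913) in old WT and 2.02 (95% interval 0.67 to 3.37, adjusted p = 0.0314) in old KO against young WT livers. Old KO against old WT gave −0.49 (95% interval −1.53 to 0.55, adjusted p = 0.771). The old KO call was lost when any 1 of young WT 2, 3 and 4 and old KO 1, 4 and 5 was left out, with adjusted p up to 0.0800. Counts of 10 or more were reached in 4 libraries, all old, so *Timp1* passed the filter through the groups where it is high. With only the 10 libraries of a comparison it failed the filter in both comparisons with young WT, so neither call could be made. *Timp1* (chromosome X, 20447292 to 20451861 on NCBIM37, plus strand) lies within *Syn1* on the opposite strand without a shared exon, and *Syn1* held from 0 to 0.594 CPM, as much as *Timp1* itself.

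*Timp2*, whose protein holds pro-MMP2 at the MMP14 complex, stood at 10.3 to 14.7 CPM in the young, 9.52 to 20.9 in the old WT and 7.43 to 25.3 in the old KO livers. Its coefficient of variation was 13.1% in young WT, 28.7% in old WT and 46.7% in old KO livers. Age gave 0.34 (95% interval −0.24 to 0.92, adjusted p = 0.416) and genotype 0.06 (95% interval −0.52 to 0.64, adjusted p = 0.965). In each old group *Timp2* was highest in the same pair of libraries as *Mmp2*, old WT 5 and 7 and old KO 1 and 5. The summed bile duct markers were also highest in old WT 5 and 7, at 118 and 156 CPM against 42.5 to 75.0 in the other old WT livers. In old KO livers 1 and 5 they stood at 114, the highest, and 88.8 CPM, the latter below the 93.3 CPM of old KO 4. The summed stellate cell and fibroblast markers stood at 444 and 379 CPM in old WT 5 and 7, below old WT 1 at 513, and at 462, the highest of their group, and 377 CPM in old KO 1 and 5. Summed mesothelial, macrophage and T, NK and B cell markers were also highest in old KO 1 and 5 (170 and 161, 518 and 476, 14.5 and 13.4 CPM). In old WT 5 and 7 the mesothelial sums were 139 and 123 CPM, against 137 in old WT 4. The macrophage sums there were 572, the lowest of the group, and 799 CPM. The T, NK and B cell sums were 16.5 and 22.5 CPM, against 17.4 in old WT 4. *Spp1* was on both the bile duct and the macrophage list, so these sums share a gene. With age 6 of the 7 mesothelial markers were higher and 1 lower (median log2 difference 0.69). Their median sum was 142 CPM in young WT and 123 CPM in old WT livers, so the sum does not follow most of its genes. The part of these cell types in the levels of *Mmp2* and *Timp2* was not tested.

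*Timp3*, which encodes an inhibitor bound to the matrix, ranged from 11.9 to 21.7 CPM in the young, 8.05 to 24.4 in the old WT and 9.64 to 17.3 in the old KO livers. The groups overlapped, with differences of −0.08 for age (95% interval −0.62 to 0.45) and 0.02 for genotype (95% interval −0.52 to 0.56). Exons of *Timp3* overlap those of *Syn3* on the opposite strand, which held 0.588 to 1.21 CPM.

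**Figure D3:**
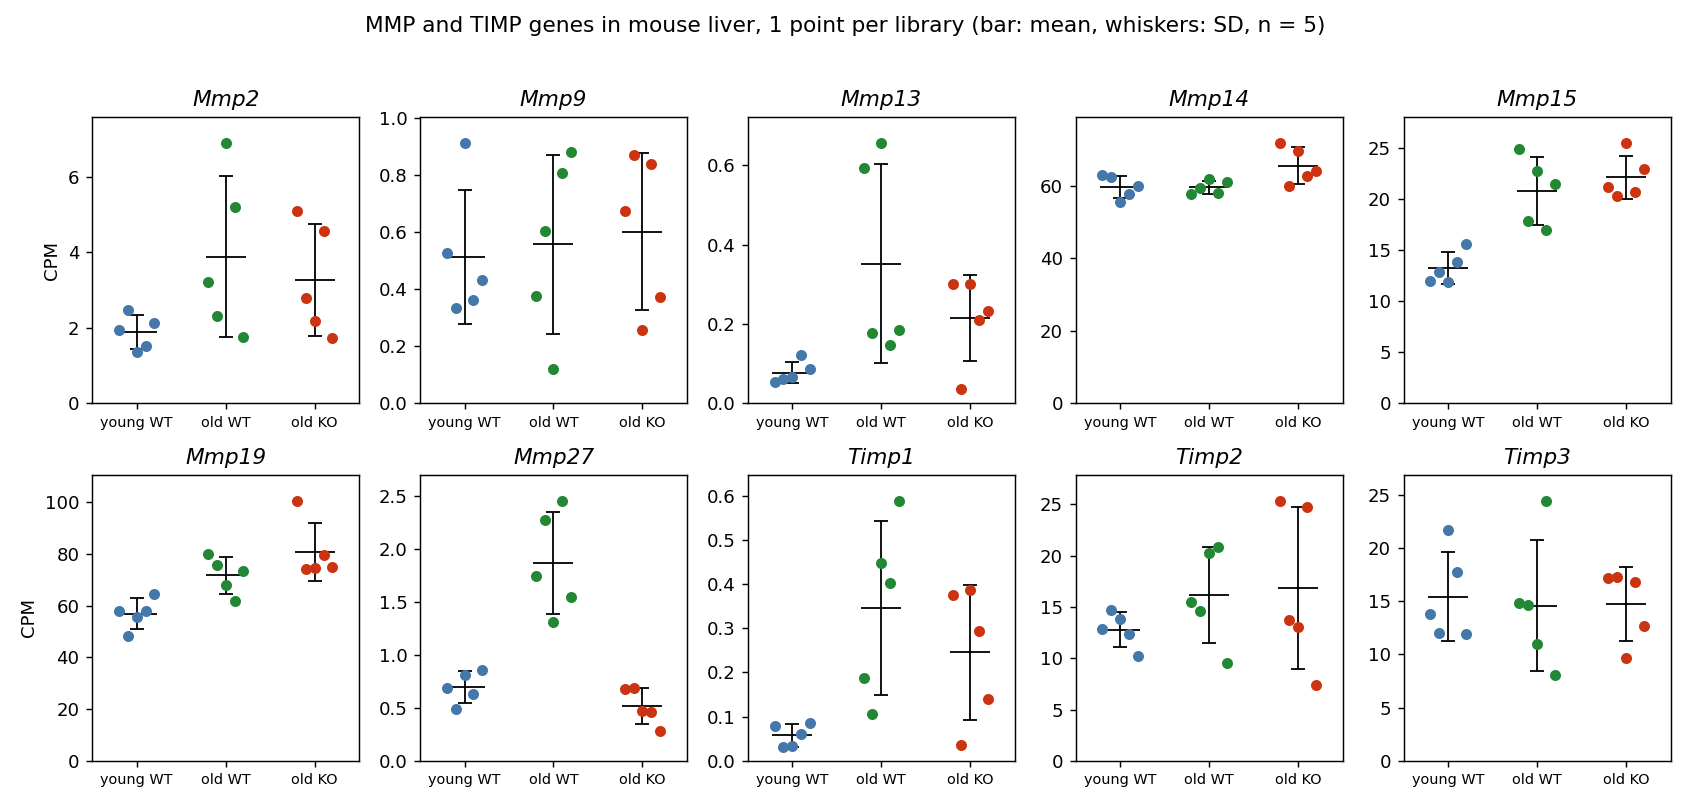
CPM of each member in the 15 libraries, with bars at the mean and whiskers of 1 SD (n = 5 per group), and each panel on its own axis from 0. *Mmp27* is high in the 5 old WT livers only, and *Mmp15* is higher in all old livers than in all young ones.

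**Figure D4:**
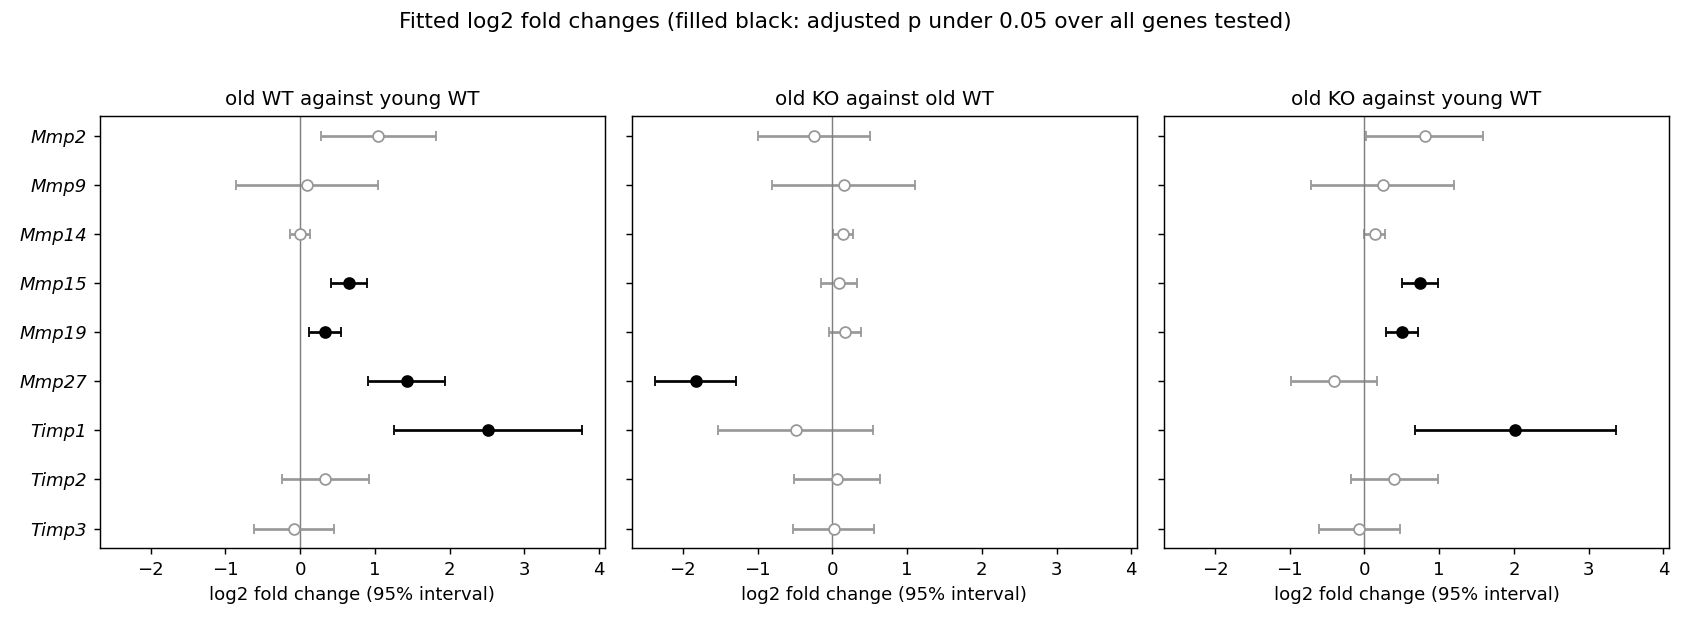
Fitted log2 fold changes with 95% intervals for the 9 tested members in 3 comparisons. Filled points are called at an adjusted p under 0.05, 4 with age, 1 (*Mmp27*, −1.83) between the old groups and 3 in old KO against young WT.

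In old KO against young WT livers 3 of 9 members were called, all higher (*Mmp15*, *Mmp19* and *Timp1*), where 23.3% of all genes were called (12.0% higher and 11.3% lower). Ranges of CPM did not overlap for 3 of the 9 tested members with age, all higher (11.4% of all genes, 5.78% higher), for 1 between the old groups, lower (3.20%, 2.08% lower), and for 2 in old KO against young WT, both higher (13.9%, 7.32% higher). *Timp1*, among the 3 members apart with age, had enough counts for the test through old livers alone. Ratios of protease to inhibitor, taken from RPKM within a library and not tested, overlapped between the groups. The summed MMP members stood at 6.64 to 11.1 times the summed TIMP members in the young, 5.37 to 12.6 in the old WT and 6.19 to 14.6 in the old KO livers. *Mmp2* stood at 0.127 to 0.264 times *Timp2* in the young, 0.203 to 0.436 in the old WT and 0.214 to 0.297 in the old KO livers.

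Among the 17 other MMPs and TIMPs 5 were tested and none was called with age or between the old groups (0 of 5 each). An unadjusted p under 0.05 was reached by 2 of them with age and 1 between the old groups, against 33.0% and 11.6% of all genes. *Mmp12*, the macrophage elastase, had the highest mean CPM of them, not scaled to exon length. It stood at 3.33, 5.43 and 3.18 CPM in young WT, old WT and old KO livers. Its difference was 0.70 (adjusted p = 0.0543) with age and −0.77 (adjusted p = 0.194) for genotype. Per 1000 CPM of macrophage markers *Mmp12* overlapped between all groups (3.53 to 13.1, 3.64 to 11.4 and 6.16 to 10.4 CPM). *Mmp7*, *Mmp11*, *Mmp17* and *Mmp23* differed with age by 1.45, 0.76, 0.41 and 0.74, none of them called, and between the old groups by −0.26, −0.18, −0.22 and 0.26. In old KO against young WT livers 1 of the 5 was called, *Mmp23*, where 23.3% of all genes were called. *Mmp23* was higher by 1.00 (adjusted p = 0.0487), at 1.20 to 1.59 CPM in old KO and 0.261 to 1.01 in young WT livers.

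Of 22 tested activators and binding partners of MMPs, 3 were called higher and 2 lower with age, and none between the old groups (0 of 22, 4 at an unadjusted p under 0.05). Over all genes 9.92% were called higher and 8.91% lower with age, and 0.533% between the old groups, with 11.6% at an unadjusted p under 0.05. These shares stand beside each list below as well. *Reck*, a membrane-anchored inhibitor of MMPs, fell from 5.37 to 2.98 CPM (−0.85, adjusted p = 0.00707), and *Furin*, which cleaves the proforms of membrane-type MMPs, fell by 0.33 on the log2 scale. *Lcn2*, whose product binds MMP9, rose by 1.71 and *Klkb1*, plasma kallikrein, by 0.48. Of 26 ADAM and ADAMTS proteases, 3 were called higher (*Adamdec1* 1.61, *Adam12* 1.06 and *Adam8* 1.01) and 1 lower (*Adamts1* −0.71) with age, and 0 of 26 between the old groups (2 at an unadjusted p under 0.05). Of 9 cathepsins, meprins, hyaluronidases and elastases, *Ctsb* rose by 0.64 and *Hyal1* fell by 0.43 with age, and 0 of 9 were called between the old groups (4 at an unadjusted p under 0.05).

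Of 30 matrix substrates 3 were called higher and 3 lower with age (9.92% and 8.91% of all genes). Between the old groups 0 of 30 were called (0.533% of all genes), and 3 had an unadjusted p under 0.05 (11.6% of all genes). *Col4a1* and *Col4a2*, the chains of basement membrane collagen, fell by 0.83 and 1.07 on the log2 scale. *Tnc*, tenascin C, rose by 1.25. *Col5a2* gave 2.56 at a mean of 16.9 CPM in old WT, where the 5 livers ranged from 2.06 to 72.6 CPM. Of 15 AP-1 and other transcription factors of MMP genes, 1 was called with age, *Fos*, which was higher (0.83, adjusted p = 0.0429). In old KO against old WT livers 1 of the 15 was called, again *Fos*, which was lower (−1.47, adjusted p = 0.0337). There 4 of the 15 had an unadjusted p under 0.05 (11.6% of all genes), and 12 were lower and 3 higher (median −0.34).

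Markers of the other cell types were counted beside the members. With age, 9.92% of all genes were called higher and 8.91% lower. Of the stellate cell and fibroblast markers 2 of 17 were called higher and 2 lower, and of the T, NK and B cell markers 4 of 14 were called higher. Of the endothelial markers 3 of 15 were called lower, of the hepatocyte markers 3 of 12 lower, of the bile duct markers 2 of 8 higher and of the mesothelial markers 1 of 7 higher. None of these markers was called between the old groups by edgeR, where 0.533% of all genes were called. There 3 of the T, NK and B cell markers and 1 of the stellate cell and fibroblast markers had an unadjusted p under 0.05, against 11.6% of all genes. Of the 14 T, NK and B cell markers 14 were lower and 0 higher between the old groups (median log2 difference −0.72). With age 12 of them were higher and 2 lower (median 0.84). Between the old groups the medians of the other lists of this paragraph lay between −0.03 and 0.25. The part of these cell types in the age differences of the members was not tested.

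The genes whose log2 CPM moved most like *Mmp27* within the groups, as deviations from the group means over 15 libraries, were *2510009E07Rik* (Pearson's r = 0.923), *Ralb* (0.915) and *Apobec1* (0.875). For *Timp1* they were *Cdc42se1* (0.853), *Pdap1* (0.834) and *Prr11* (0.825). These are the highest of 14258 genes over the same libraries and are given as a description.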

How the data were processed

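Whole-liver RNA was made into stranded poly(A) libraries and read as single 50-base reads. The authors mapped reads to mm9 with TopHat (2.0.11 in the submitters' processing notes) and assigned them to genes with HTSeq. What they deposited are raw read counts per gene without normalization, and the annotation, strand setting and treatment of multiply mapped reads are not given in the sources used here. Positions and exon lengths came from GENCODE M1 (NCBIM37, which is mm9), and 37205 of 37991 identifiers had one. Promoters came from RefSeq on GRCm38.p6.

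The members and all gene lists were chosen with earlier results of these data known. All members are named, and of each list the up to 4 called genes with the largest change. Groups came from the sample titles. Counts were scaled by TMM and filtered with filterByExpr in edgeR 4.0.16 (R 4.3.3), and 1 quasi-likelihood model was fitted to all 15 libraries. CPM uses the TMM-scaled library size. The SE of a fitted log2 fold change was derived from its value and its quasi-likelihood F statistic. The 95% intervals are symmetric and built from this SE, so they are approximate where counts are low. The p-values were adjusted over 14258 genes. Mmp13 was tested by exact permutation over 252 assignments of the libraries. Alternatives were other scalings, filters and sample sets, DESeq2 1.42.0 and voom in limma 3.58.1. The scripts were tested on simulated data. Intervals from few counts are wide, and the counts limit the precision for Mmp9, Mmp13, Mmp27 and Timp1. Libraries of a group differed by more than sampling noise in all 30 pairs.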

Additional observations from a re-analysis of the deposited data

Results flagged for a closer look

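*Mmp19* in old KO 1 stood at 101 CPM, apart from the other 4 old KO livers at 74.2 to 79.7 CPM. The gap to the nearest liver was 0.793 of the whole range of the group, above Dixon's critical value for 5 samples. Chance gives such a value in about 1 of 20 groups, and 30 values of members by group were examined, for which chance gives 1.5 and 1 was found. Without this liver *Mmp19* remained higher in old KO than in young WT livers (0.42 on the log2 scale, adjusted p = 0.00578), and the difference between the old groups was 0.08 (adjusted p = 0.814).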

How the results depend on the processing

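*Mmp27* and *Mmp15* kept their age calls and *Mmp27* its genotype call in each fit that left out 1 of the 15 libraries (*Mmp27* genotype −1.96 to −1.68, adjusted p 0.00404 to 0.0230). Other scalings of edgeR, DESeq2 and voom changed no call of these genes. Genes called between the old groups numbered 76, against 305 with DESeq2 and 23 with voom. Without 1 library they numbered 9 to 108 between the old groups, 1748 to 3284 with age and 2460 to 3829 in old KO against young WT, and members called numbered 1 to 1, 3 to 5 and 2 to 3 in the same order. With at least 10 counts in every library, 6 members were left to test, 2 were called with age and 0 between the old groups, since *Mmp27* was not among them. *Timp1* in old KO against young WT missed the threshold with voom (1.59, adjusted p = 0.0852).

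Same-numbered livers did not deviate together (correlations −0.153 to 0.077). Few numbers are shared between groups, so these correlations cannot show that the numbers carry no pairing. A replicate block with these numbers gave 899, 6 and 2334 genes called with age, between the old groups and in old KO against young WT, and 2, 0 and 2 members. *Mmp27* then differed between the old groups by −1.76 (adjusted p = 0.231). *Timp1* lost its calls against young WT in old WT (1.12, adjusted p = 0.334, against 2.51 without the block) and in old KO livers (1.60, adjusted p = 0.0959), and *Mmp19* its call with age (0.36, adjusted p = 0.116). The causes were not tested.

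Some differences changed sign, none of them called. The largest such turn was *Timp1* between the old groups, from −0.49 to 0.48 with the block. For age they were *Mmp14* at 0.0038 with upper quartile scaling and 0.0020 with the stricter filter, and *Mmp9* at −0.11 with voom and −0.18 with the block. For genotype they were *Timp3* at −0.0084 with upper quartile scaling and *Timp2* at −0.014 with voom, and *Timp3* in old KO against young WT was at 0.086 with the block. Without 1 library the ranges for age were −0.025 to 0.015 for *Mmp14*, −0.14 to 0.41 for *Mmp9* and −0.34 to 0.079 for *Timp3*. For genotype they were −0.46 to 0.072 for *Mmp2*, −0.12 to 0.38 for *Mmp9*, −0.13 to 0.25 for *Timp2* and −0.14 to 0.28 for *Timp3*, and for *Timp3* in old KO against young WT −0.15 to 0.089.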
